A study of Mus musculus with 12 samples.

Results

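Macrophage identity and scavenger receptor genes were examined in tumors of the A20 line, a B-cell lymphoma of Balb/c mice. The 8 genes were Cd68, Cd163, Mrc1, Msr1, Marco, Spp1, Trem2 and Cx3cr1, found by symbol among the 770 genes of the nCounter mouse PanCancer Immune panel, of which 750 are not reference genes and were tested. All 8 had a count in every tumor and none was removed by a filter. Female Balb/c mice, purchased at 7 to 8 weeks of age, carried subcutaneous tumors from 5000000 implanted A20 cells and were assigned to groups about 7 days later. Tumors were injected with PBS, with GLA-SE, a stable emulsion carrying the TLR4 agonist GLA (10 µg GLA in 50 µl of 2% emulsion; named G100 in the study), or with the emulsion alone (SE). Each group had 4 mice, with 3 injections given every other day and the tumor collected 2 h after the last. The values therefore carry the spread between 4 tumors per group, and the PBS and SE tumors serve as controls of GLA-SE.

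Macrophages clear dead cells, lipids and microbes, and much of that uptake runs through scavenger receptors. Msr1 and Marco are class A scavenger receptors that bind modified lipoproteins and bacterial surfaces, Cd163 takes up hemoglobin bound to haptoglobin, and Mrc1 is the mannose receptor. Cd68 is a lysosomal glycoprotein widely used as a macrophage marker, Trem2 is a lipid-sensing receptor of tissue macrophages and microglia, Cx3cr1 is the receptor for the chemokine Cx3cl1, and Spp1 encodes osteopontin, a secreted ligand of integrins and Cd44.

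The level of a gene is given as a normalized count, the deposited number of counted probes after scaling of every tumor by its geometric mean over 17 reference genes. A gene is called where edgeR's quasi-likelihood test gave an adjusted p under 0.05 over the 750 genes. Total counts ranged from 810260 to 1612415 per tumor. Deposited counts of the 8 genes ran from 8 to 4661, and Marco was the scarcest, with 18 to 24 counts in the PBS tumors, near the threshold of 20 that the study's methods set. SE replicate 4 stood apart, with the lowest geometric mean of the 17 reference genes (1011 counts, against 1647 to 3077 in the other SE tumors), so its scaling factor was the largest, at 2.04. In whole tumors, more macrophages and more RNA per macrophage cannot be told apart. Probes differ in efficiency, so levels were compared between tumors and not between genes.

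In GLA-SE tumors, 7 of the 8 genes were higher than in PBS tumors relative to the reference genes, but Cd163 had the opposite sign (-0.02) after scaling to the panel median, as did Cd68, Cd163, Mrc1 and Trem2 after scaling to other macrophage markers. Cx3cr1 did not pass the test. The log2 fold change was 2.84 for Spp1, 2.59 for Marco, 1.95 for Msr1, 1.6 for Mrc1, 1.45 for Trem2, 1.36 for Cd68, 1.24 for Cd163 and 0.38 for Cx3cr1. Most of the panel moved the same way, since 68.3% of the 750 genes were called higher and 68.7% were called in either direction. The count of 7 therefore reads against a high background. The median log2 fold change was 1.53 over the 8 genes and 0.89 over the 750. In the same comparison 63.6% of the panel had every GLA-SE tumor above every PBS tumor, as did 7 of the 8 genes.

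**Figure D1:**
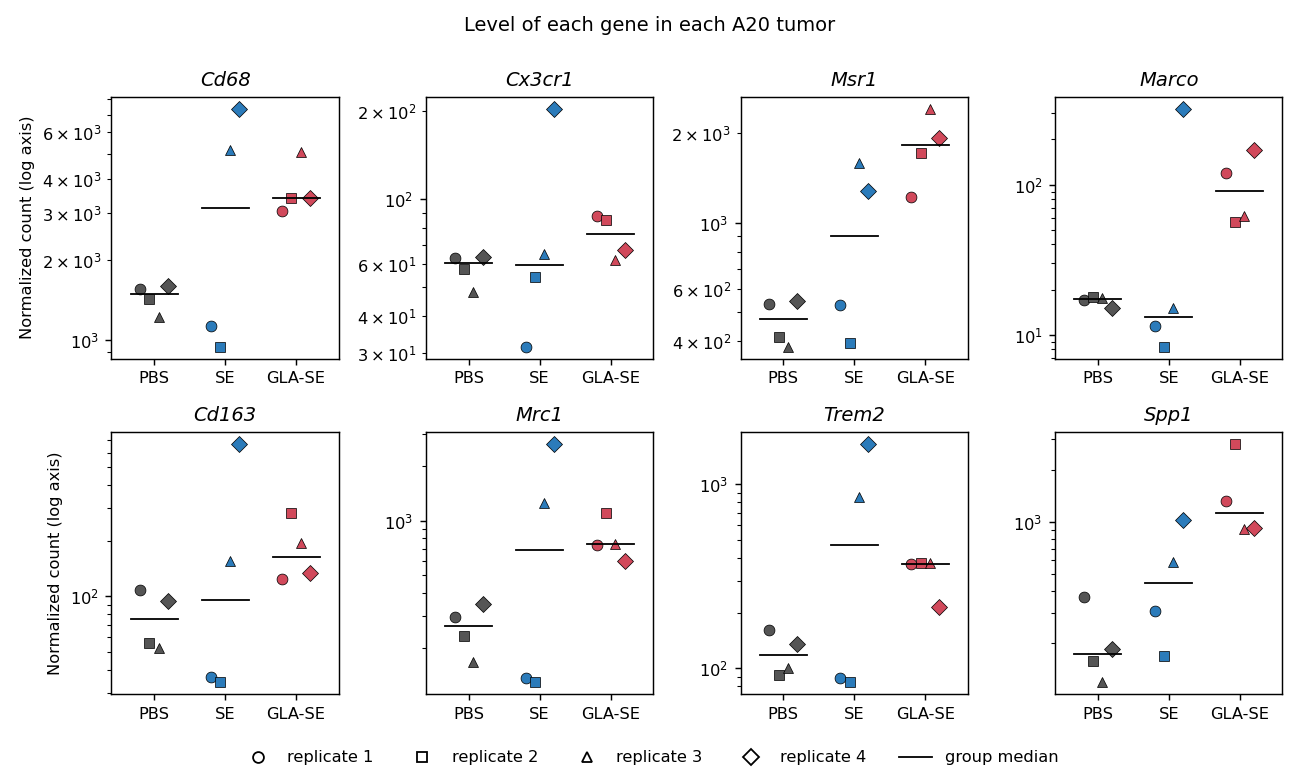
Normalized counts (log axis) of the 8 genes in each of the 12 A20 tumors, with the marker shape giving the replicate and the line the group median. Relative to the reference genes, GLA-SE tumors lay above all PBS tumors for every gene except Cx3cr1 (the difference of Cd163 turned to -0.02 with panel-median scaling), while SE replicates 3 and 4 lay apart from SE replicates 1 and 2 for Cd68, Mrc1, Msr1 and Trem2.

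Spp1 had the largest difference of the 8. Its normalized count was 370, 159, 119.8 and 187 in the PBS tumors, 305, 169, 586 and 1024 in the SE tumors, and 1323, 2807, 907 and 927 in the GLA-SE tumors (replicates 1 to 4 in this order throughout). The lowest GLA-SE tumor was thus above every PBS tumor. The mean was 209 ± 111 (SD, n = 4) in PBS and 1491 ± 898 (SD, n = 4) in GLA-SE, a log2 fold change of 2.84 ± 0.48 (SE of the estimate; edgeR, adjusted p = 0.00136). Spp1 ranked 24th of 750 by log2 fold change. GLA-SE replicate 2 was the highest, and without it the log2 fold change was 2.33.

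Marco was close to the count threshold in 7 of the 12 tumors. Its normalized count was 17.0, 17.8, 17.5 and 15.1 in PBS, 11.4, 8.33, 15.0 and 322 in SE, and 119.5, 56.1, 61.9 and 171 in GLA-SE. All GLA-SE tumors exceeded the PBS tumors, and among the SE tumors replicate 4 was high and the other three lay below the PBS tumors. The mean was 16.8 ± 1.21 (SD, n = 4) in PBS and 102 ± 54.0 (SD, n = 4) in GLA-SE, with a log2 fold change of 2.59 ± 0.39 (SE of the estimate; edgeR, adjusted p = 0.000737). Marco ranked 34th.

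Msr1, the other class A scavenger receptor, was measured at higher counts. It stood at 534, 414, 384 and 546 in PBS, 532, 394, 1589 and 1278 in SE, and 1218, 1713, 2413 and 1924 in GLA-SE. Every GLA-SE tumor was above every PBS tumor, and SE replicates 3 and 4 lay within the GLA-SE range. The mean was 470 ± 82.3 (SD, n = 4) in PBS and 1817 ± 495 (SD, n = 4) in GLA-SE, with a log2 fold change of 1.95 ± 0.22 (SE of the estimate; edgeR, adjusted p = 0.000241), and its rank was 71st.

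The sequence before the start of Spp1 and Marco, which had the largest differences, is shown beside that of Cx3cr1, the gene that was not called. Each runs from 250 bases before to 50 bases after the gene start, from RefSeq on GRCm38.p6, with matches to GAGGAA, a purine-rich core of the PU.1 type, in capitals. PU.1 is a transcription factor needed for macrophage development. The first of a pair of Spp1 entries is chr5:104434861-104435160 on the plus strand, that of Marco is chr1:120504975-120505274 on the minus strand, and that of Cx3cr1 is chr9:120068247-120068546 on the minus strand.
Spp1: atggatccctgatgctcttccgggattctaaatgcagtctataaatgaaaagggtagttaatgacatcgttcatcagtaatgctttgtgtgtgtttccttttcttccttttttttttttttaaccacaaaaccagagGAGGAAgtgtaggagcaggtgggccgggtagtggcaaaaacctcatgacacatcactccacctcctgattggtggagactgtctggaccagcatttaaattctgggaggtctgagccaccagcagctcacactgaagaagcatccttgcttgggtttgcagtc
Marco: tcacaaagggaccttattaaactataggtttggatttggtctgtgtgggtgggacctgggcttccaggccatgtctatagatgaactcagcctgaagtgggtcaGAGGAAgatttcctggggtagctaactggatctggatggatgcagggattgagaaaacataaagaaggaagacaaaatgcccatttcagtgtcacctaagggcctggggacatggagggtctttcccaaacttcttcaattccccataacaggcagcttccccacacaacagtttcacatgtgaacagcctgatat
Cx3cr1: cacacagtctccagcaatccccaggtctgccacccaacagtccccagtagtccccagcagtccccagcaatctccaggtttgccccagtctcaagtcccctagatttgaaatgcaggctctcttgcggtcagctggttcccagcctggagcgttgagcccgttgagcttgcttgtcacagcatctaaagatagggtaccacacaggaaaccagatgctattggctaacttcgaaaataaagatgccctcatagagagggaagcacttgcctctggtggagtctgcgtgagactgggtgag
GAGGAA was sought on both strands and occurred in at least 1 window of 5 of the 7 genes that had one. It occurred once each in the first Spp1 entry and in Marco, and not in the second Spp1 entry, Cx3cr1 or Cd163. It also occurred in 28.3% of 32851 promoters of the same length, a share of promoters and not of genes, so a match describes letters and not a site. TGANTCA, a loose AP-1-like pattern in which N is any base, occurred in the windows of Cd68 (as TGAGTCA) and Trem2 (as TGAATCA). It occurred in 7.81% of all promoters, and in Cd68 and Trem2 it overlapped no GAGGAA match. Msr1 had no entry.

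Cd68 and Mrc1 had smaller log2 differences. Cd68 was at 1555, 1419, 1222 and 1599 in PBS, 1127, 944 and then 5139.9 and 7375 in SE, and 3035, 3407, 5065 and 3396 in GLA-SE. In the SE tumors, replicates 1 and 2 were below all PBS tumors and replicates 3 and 4 above all GLA-SE tumors. GLA-SE against PBS gave 1.36 ± 0.17 (SE of the estimate; edgeR, adjusted p = 0.000396). Mrc1 was at 298, 233, 167 and 349 in PBS, 138, 130.2, 1248 and 2632 in SE, and 737, 1097, 748 and 601 in GLA-SE. The same split of the SE tumors was seen. Its log2 fold change was 1.6 ± 0.27 (SE of the estimate; edgeR, adjusted p = 0.00119).

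Trem2 and Cd163 were called with adjusted p values of 0.00162 and 0.0128 (edgeR). Trem2 was at 161, 91.6, 101 and 136 in PBS, 88.9, 84.3, 849 and 1659 in SE, and 367, 375, 376 and 217 in GLA-SE. Its highest levels were thus in SE replicates 3 and 4, above any GLA-SE tumor. Cd163 was at 108, 56.1, 52.6 and 93.7 in PBS, 36.8, 34.4, 155 and 668 in SE, and 124, 283, 193 and 134 in GLA-SE. The lowest GLA-SE tumor was just above the highest PBS tumor. Log2 fold changes were 1.45 ± 0.26 for Trem2 and 1.24 ± 0.35 for Cd163 (SE of the estimates).

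Cx3cr1 was the exception, at 63.1, 58.0, 48.2 and 63.5 in PBS, 31.4, 54.1, 65.0 and 204 in SE, and 87.7, 85.1, 61.9 and 67.1 in GLA-SE. The PBS and GLA-SE tumors overlapped. The log2 fold change was 0.38 (95% interval -0.07 to 0.83; edgeR, adjusted p = 0.119; exact permutation test, two-sided p = 0.0857) and ranked 585th of 750, below the panel median by 0.52. Its sign turned to -0.87 after scaling to the panel median, where it was called lower (edgeR, adjusted p = 0.0147), and to -0.51 with TMM (edgeR, adjusted p = 0.0871). Its ligand Cx3cl1 was higher in GLA-SE than in PBS tumors relative to the reference genes, with means of 94.1 and 30.3 and a log2 fold change of 1.63 (edgeR, adjusted p = 0.00356). Cx3cl1 was not called higher after scaling to the panel median, and its deposited counts in PBS were low, at 22 to 43.

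**Figure D2:**
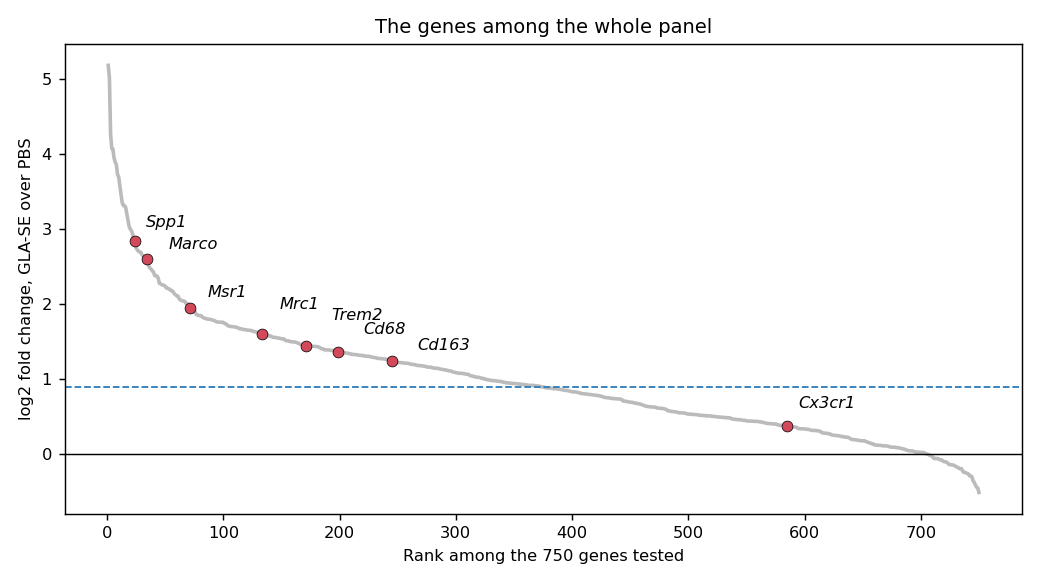
Log2 fold change of GLA-SE over PBS (y axis) against rank among the 750 genes tested (x axis), with the 8 genes as points and the panel median of 0.89 as a dashed line. Points for 7 of the genes lie above the median and Cx3cr1, at rank 585, lies below it; after scaling to the panel median Cd163 and Cx3cr1 were below 0.

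The calls depended on the scale. With scaling to the panel median, which moved the median log2 fold change of all genes from 0.89 to -0.40, Msr1 (0.66), Marco (1.38) and Spp1 (1.63) were still called higher, while Mrc1 (0.35), Trem2 (0.19), Cd68 (0.06) and Cd163 (-0.02) were not called and Cx3cr1 was called lower. On that scale 8.13% of the panel was called higher and 40.9% lower. One fit over all 12 tumors, which shares the spread of the SE tumors, called Msr1 and Spp1 and no other of the 8, and 33.7% of the panel, all higher.

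The lists of related genes moved with them relative to the reference genes, where 68.3% of the 750 genes were called higher. Of 10 other monocyte and macrophage markers, 10 were called higher, with a median log2 fold change of 1.54, led by Cd14, the co-receptor of TLR4 for endotoxin (3.69), and Fcgr1, a high-affinity IgG receptor (2.61). GLA-SE replicate 3 carried much of the Cd14 value, which was 2.00 without it, below the 2.74 of Fcgr1. Of 7 other scavenger and dead-cell receptors, 7 were called higher, with a median of 1.56, led by Timd4 (2.37) and Mertk (1.85), receptors for phosphatidylserine on dying cells, directly and through bridging proteins respectively. After scaling to the panel median 2 of the 10 and 2 of the 7 were called higher and none lower, where 8.13% of the panel was called higher and 40.9% lower. The summed level of the 10 macrophage markers was 31271 to 39444 in PBS and 88142 to 126071 in GLA-SE. Lyz2 alone made up most of these sums, at 26330 to 33447 in PBS and 73399 to 104029 in GLA-SE.

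After scaling to the panel median, 4 of 9 ligands, receptors and partners were called lower, as was 40.9% of the panel, and none was called higher. Relative to the reference genes 7 of the 9 were called higher, as was 68.3% of the panel. Apoe, a lipid carrier and Trem2 ligand, was at 1.93, Cx3cl1 at 1.63, Clu, another Trem2 ligand, at 1.54, the integrin subunit Itga4 at 1.21, the kinase Syk at 0.97, and the integrin subunits Itgb3 and Itgb1 at 0.85 and 0.56. Cd44, a receptor of osteopontin, gave 0.44 (edgeR, adjusted p = 0.157) and the adaptor Hcst 0.61 (edgeR, adjusted p = 0.0523), and neither was called. Cd44 was near the threshold of 20, with 18 to 28 deposited counts in PBS and 20 to 37 in GLA-SE.

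Several markers of other cells differed in the same comparison, where 68.3% of the 750 genes were called higher relative to the reference genes. After scaling to the panel median, 8.13% of the panel was called higher and 40.9% lower. All 9 endothelium and fibroblast markers were called higher, with a summed level of 4099 to 9245 in PBS and 18062 to 26549.7 in GLA-SE tumors, led by Col1a1 (1.70) and Col3a1 (1.63), and after scaling to the panel median none was called higher and 1 lower. Col3a1 alone was 2065 to 5502 in PBS and 11415 to 15690 in GLA-SE. Without PBS replicate 2 or 3 or GLA-SE replicate 2, 6 of the 9 were called higher. Of 6 neutrophil markers 3 were called higher, led by S100a8 (5.02) and Cxcr2 (3.20), with sums of 208 to 232 in PBS and 813 to 8877 in GLA-SE, and after scaling to the panel median 2 were called higher and 3 lower. S100a8 alone was 69.7 to 99.3 in PBS and 548 to 7682 in GLA-SE. Without GLA-SE replicate 3 the log2 fold changes were 3.62 for S100a8 and 1.95 for Cxcr2. Of 6 B-cell markers 2 were called lower, Ms4a1 (-0.45) and Cd79b (-0.41), with sums of 17941 to 21228 in PBS and 14371 to 16781 in GLA-SE, and all 6 were called lower after scaling to the panel median; B-cell markers were thus present in every tumor of both groups. T-cell markers were called higher in 4 of 6, NK-cell markers in 3 of 4 and dendritic-cell markers in 1 of 4 relative to the reference genes, against 68.3% of the panel. Klrb1c, Xcr1 and Cd207, which were not called, had low counts, with GLA-SE means of 18.1, 23.0 and 22.2. The neutrophil markers Ltf and Camp, also not called, had GLA-SE means of 13.0 and 13.7. After scaling to the panel median none of the T-cell, NK-cell and dendritic-cell markers was called higher, and 1 NK-cell and 3 dendritic-cell markers were called lower. The T-cell count was 0 without PBS replicate 3, 1 without GLA-SE replicate 3 or 4, 2 without GLA-SE replicate 1 and 6 without PBS replicate 1. The part of these cells in the differences of the 8 genes was not tested.

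Levels were also expressed relative to the macrophage markers themselves, as the log2 count of each gene minus the mean log2 count of the 10 other monocyte and macrophage markers in the same tumor, a measure chosen after seeing the data, which no reference gene enters. On this scale Cx3cr1 was at -3.19, -3.09, -3.13 and -3.22 in the PBS tumors and at -4.06, -4.31, -5.08 and -4.56 in the GLA-SE tumors. The groups did not overlap, and the difference was -1.35 (means -3.16 ± 0.06 and -4.50 ± 0.43, SD, n = 4; exact permutation test, two-sided p = 0.0286, the smallest that 4 against 4 allows, and 0.229 after Benjamini-Hochberg adjustment over 24 tests). Cd68 was also below, at 1.43, 1.53, 1.54 and 1.43 in PBS and 1.05, 1.01, 1.27 and 1.11 in GLA-SE, a difference of -0.37 (exact permutation test, two-sided p = 0.0286, adjusted 0.229). Relative to the same markers 54.7% of the panel had every GLA-SE tumor below every PBS tumor. The mean of the 10 markers includes Cd14 and Fcgr1, whose log2 fold changes relative to the reference genes were 3.69 and 2.61. By that measure C1qb (1.31) and Siglec1 (1.33) rose less than Cd68 (1.36), and the others of the 10 rose more.

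With the tumors scaled to these markers and the panel refitted with edgeR, also chosen after seeing the data, 62.3% of genes were called lower and 3.2% higher, and the median of all genes was -0.83. Cx3cr1 (-1.30, adjusted p = 0.00104) lay below that median and Cd68 (-0.37, adjusted p = 0.0133) above it, both called lower. Spp1 (1.20, adjusted p = 0.0254) was the only one of the 8 called higher. Of the 10 markers themselves, 2 were called higher and 2 lower in this fit, with a median of -0.17. By the exact permutation test on the marker-relative values, Spp1 differed by 1.09 with overlapping groups (two-sided p = 0.0857, adjusted 0.411). Msr1, Marco, Mrc1, Trem2 and Cd163 overlapped between PBS and GLA-SE tumors on this scale.

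**Figure D3:**
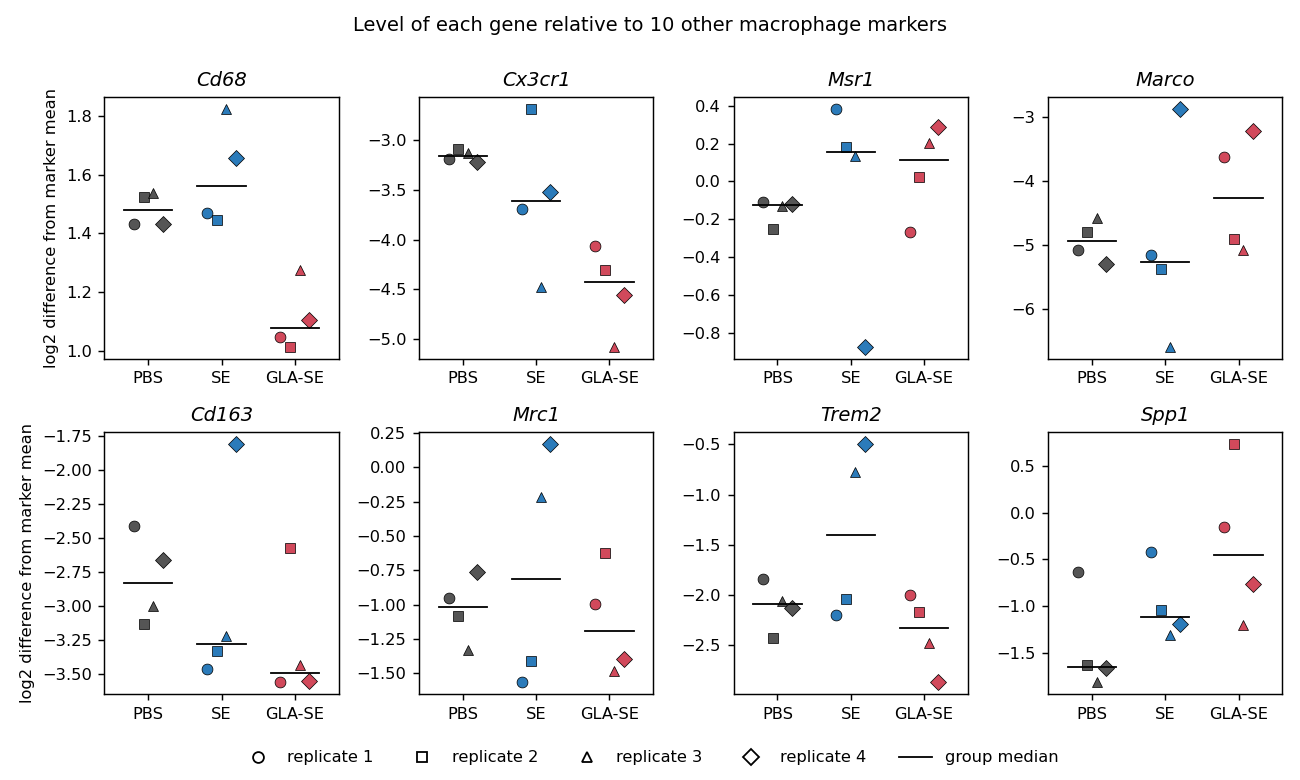
Log2 count of each gene minus the mean log2 count of 10 other monocyte and macrophage markers in each tumor (y axis), with the marker shape giving the replicate and the line the group median. Cx3cr1 and Cd68 lay lower in all GLA-SE tumors than in all PBS tumors, and Trem2 reached -0.77 and -0.50 in SE replicates 3 and 4.

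The comparison of SE with PBS addressed the effect of the emulsion alone. No gene of the 8 was called, nor was any of the 750 with edgeR (0% of the panel), where 18.7% had an unadjusted p under 0.05 (1 of the 8, Trem2), limma called none, and DESeq2 called 60, Trem2 among them (adjusted p = 0.0422). The estimated log2 fold changes ran from 0.59 for Cx3cr1 to 2.45 for Trem2 with wide intervals (0.26 to 4.64 for Trem2, -0.43 to 5.16 for Marco), against a panel median of 0.53, and adjusted p values ran from 0.243 to 0.480. The sign for Cx3cr1 was negative with panel-median scaling (-0.23) and with TMM (-0.12). SE replicate 4 carried several of the estimates, since without it the log2 fold changes were -0.06 for Cd163, -0.55 for Marco and -0.22 for Cx3cr1.

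The wide intervals came with a split of the SE tumors. Replicates 1 and 2 had levels below the PBS range for Cd68, Cd163, Mrc1, Trem2 and Marco, while replicates 3 and 4 were above the PBS range for all of these but Marco in replicate 3. The summed level of the 10 other macrophage markers was also higher in SE replicates 3 and 4 (76756 and 112045) than in replicates 1 and 2 (26696 and 33811, the latter within the PBS range). Lyz2 made up most of these sums as well, at 21773 to 89955 in the SE tumors. The summed level of endothelium and fibroblast markers was 3529, 4465, 28175 and 121340, against 4099 to 9245 in PBS. Col3a1 made up most of the highest sum, at up to 91073 in the SE tumors, while the endothelial gene Cdh5 ran from 137 to 769. The part of those cells in the split was not tested.

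The pair of high SE tumors also had a different balance among the genes, seen in ratios of deposited counts, which need no scaling. Spp1 over Trem2 was 3.43, 2.00, 0.690 and 0.617 in SE replicates 1 to 4, against 1.19 to 2.30 in PBS and 2.41 to 7.49 in GLA-SE. Msr1 over Mrc1 was 3.86, 3.02, 1.27 and 0.486 in SE, against 1.56 to 2.30 in PBS and 1.56 to 3.23 in GLA-SE. In SE replicates 3 and 4 Trem2 was therefore high for its Spp1 and Mrc1 high for its Msr1. These tumors were singled out after their values were seen, and the ratios are a description without a test.

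**Figure D4:**
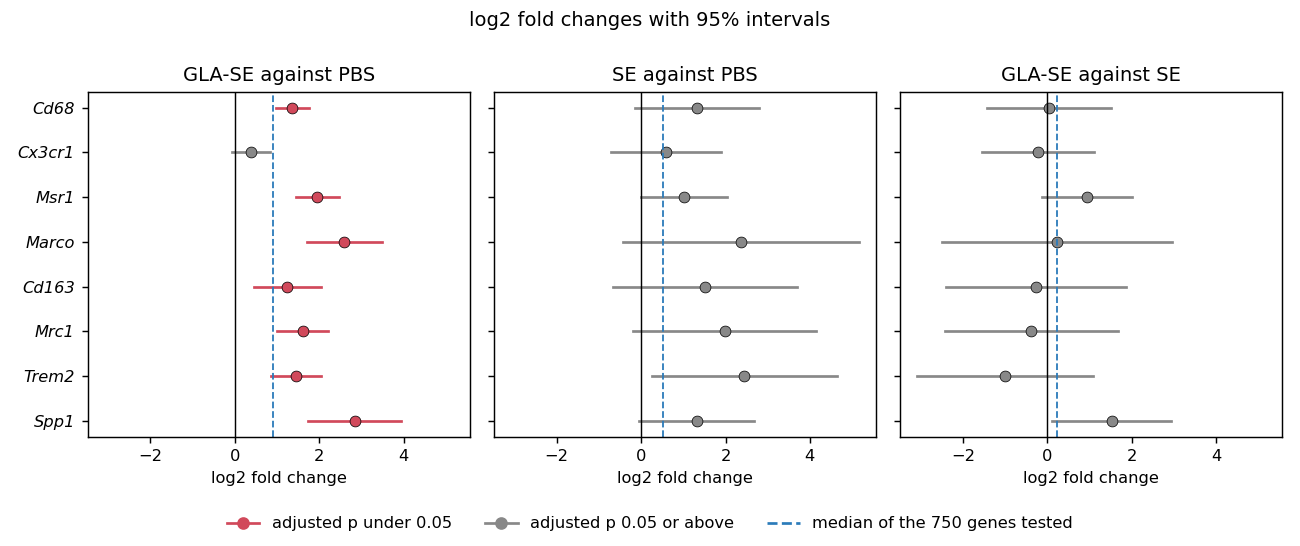
Log2 fold changes of the 8 genes (points) with 95% intervals (lines) in the 3 comparisons relative to the reference genes, red where edgeR's adjusted p was under 0.05, with the panel median dashed. Intervals are narrow for GLA-SE against PBS and wide in both comparisons with SE; after scaling to the panel median, Cd163 and Cx3cr1 changed sign in GLA-SE against PBS, Cx3cr1 in SE against PBS and Cd68 in GLA-SE against SE.

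GLA-SE against SE asked what GLA added to the emulsion. None of the 8 genes was called, where 2.13% of the panel was, 17.7% had an unadjusted p under 0.05 (1 of the 8, Spp1), and DESeq2 called 109 genes, Spp1 among them (adjusted p = 0.0489). Spp1 had the largest estimate, 1.52 (95% interval 0.12 to 2.92; edgeR, adjusted p = 0.239), and the lowest GLA-SE tumor lay below the highest SE tumor. Msr1 was at 0.94 (-0.12 to 2.00; edgeR, adjusted p = 0.332) and Trem2 at -1.0 (-3.08 to 1.07; edgeR, adjusted p = 0.659). Cd68 was at 0.03, with an interval of -1.44 to 1.5.

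Marco turned on a single tumor in this comparison. Its log2 fold change was 0.22 (95% interval -2.5 to 2.94), and without SE replicate 4, where it was at 322, it was 3.14 and was called (edgeR, adjusted p = 0.0186). The remaining SE tumors had only 17, 8 and 12 deposited counts of Marco. Relative to the 10 macrophage markers, Cd68 was lower in every GLA-SE tumor than in every SE tumor, by 0.49 on the log2 scale (exact permutation test, two-sided p = 0.0286, adjusted 0.229), as were 12.9% of the panel. GLA-SE against SE shares tumors with both comparisons against PBS.

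Across the 12 tumors, the genes whose log2 levels ran most like each of the 8 were sought among 673 genes with a mean of at least 20. These correlations share the reference scaling and the 3 groups of tumors, and are given as a description. Cd68 was most like Lrp1, an endocytic receptor (Pearson r = 0.993), and C3ar1, the receptor of complement C3a (0.986), Mrc1 like the collagen gene Col1a1 (0.990) and Siglec1 (0.981), and Trem2 like the galectin gene Lgals3 (0.984) and Igf1r (0.982). Msr1 ran closely with Slc11a1 (0.974), Cd163 was most like Itga2 (0.977) and Vwf (0.975), and Spp1 like Tnfrsf14 (0.961) and Amica1 (0.954).

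The number of close partners differed among the genes. Marco was most like Ccr6 (0.966), and 7 genes reached an r of at least 0.9 with it, against 29 for Spp1, 95 for Msr1 and 149 for Cd68. Cx3cr1 was most like Mfge8 (0.967) and Tek (0.962), an endothelial receptor, with 22 genes at that level, and without SE replicate 4 these 2 values were 0.907 and 0.891. Among the 8, r was highest for Mrc1 with Trem2 (0.966; 0.952 without SE replicate 4) and lowest for Msr1 with Cx3cr1 (0.462; 0.548 without it), but without that tumor Msr1 with Cd68 was highest (0.954) and Trem2 with Marco lowest (0.492).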

How the data were processed

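RNA of 12 A20 tumors was hybridized to the nCounter panel, and the authors deposited 1 table of counts, whole numbers of probes per gene and tumor. The methods describe normalization in nSolver, but the deposited counts have unequal totals and unequal reference genes and were treated as not normalized. No genome build applies to them. Tumors were scaled by the geometric mean over 17 of 20 reference genes, chosen by geNorm over the 12 tumors, and compared with edgeR 4.0.16 (R 4.3.3, quasi-likelihood test, 2 groups per fit, no filter, Benjamini-Hochberg over 750 genes). The exact permutation test used the 70 assignments of 4 against 4 on log2(normalized count + 1), two-sided. For levels relative to the 10 macrophage markers it used the log2 differences of deposited counts from the marker mean. Scripts were tested on simulated data. The 8 genes and the other lists were chosen with earlier results of these data known. The text names the 8 genes, the whole list of partners, the 2 genes with the largest called difference in GLA-SE against PBS of each other list, and the 2 genes most correlated with each of the 8. Some genes that this rule picks are left out of the text. Alternatives were other scalings, a filter of 20 counts in 4 of 8 tumors, one fit over all tumors, a replicate block, DESeq2 1.42.0, limma 3.58.1 with a pseudocount of 1 or 10, and leaving out each tumor. Scaling to the 10 macrophage markers was added after seeing the data. Promoters came from RefSeq, with a sequence for 7 of the 8 genes and none for Msr1. Precision is limited by 4 tumors per group and, for Marco, by low counts. Control probes were not used here.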

Additional observations from a re-analysis of the deposited data

Results flagged for a closer look

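Of 24 groups of 4 values searched for a tumor far from the others, 2 had one, where chance gives about 1.2. Marco was at 322 normalized counts in SE replicate 4 and at 8.33 to 15.0 in the other SE tumors. Trem2 was at 217 in GLA-SE replicate 4 and at 367 to 376 in the other GLA-SE tumors.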

How the results depend on the processing

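In GLA-SE against PBS, the number of the 8 genes called was 7 with all reference genes, references chosen within the comparison, no rescaling, DESeq2, limma and every omission of a tumor (7 to 7). The main fit also called 7, where 68.7% of the 750 genes were called, so this count reads against a high background. It was also 7 with the count filter, which Marco passed only through its GLA-SE counts. It was 5 with TMM, 4 with panel-median scaling, 3 with scaling to the 10 macrophage markers and 2 with all 12 tumors in one fit, where 253 panel genes were called against 515. Under marker scaling the log2 fold changes were -0.37 for Cd68, -0.44 for Cd163, -0.065 for Mrc1, -0.24 for Trem2 and -1.30 for Cx3cr1. Under panel-median scaling they were -0.019 for Cd163 and -0.87 for Cx3cr1, and under TMM -0.51 for Cx3cr1. The panel split of 512 higher and 3 lower became 61 and 307 with panel-median scaling, 148 and 168 with TMM, and 24 and 467 with marker scaling.

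In SE against PBS, DESeq2 called 1 of the 8, Trem2, and 60 panel genes. Cx3cr1 was at -0.23 with panel-median scaling, -0.12 with TMM, -0.13 without rescaling and -0.32 with marker scaling. Omitting a tumor gave 0 calls and log2 fold changes of -0.055 to 1.87 for Cd163, -0.55 to 2.75 for Marco and -0.22 to 0.87 for Cx3cr1. Marco had no value under the count filter.

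In GLA-SE against SE, 1 of the 8 was called without rescaling (Spp1, 1.87) and 1 with DESeq2 (Spp1), and 0 to 1 when a tumor was omitted (Marco without SE replicate 4). Panel calls were 16, against 109 with DESeq2, 89 without rescaling, 70 with all 12 tumors, 3 with TMM, 11 with marker scaling, 102 without SE replicate 4, 4 to 7 without GLA-SE replicate 2 or 4 or SE replicate 1, 2 or 3, and 0 with panel-median scaling. Cd68 was at -0.32 with panel-median scaling, -0.072 with TMM and -0.49 with marker scaling. Without rescaling Cd163 was at 0.40, Mrc1 at 0.24 and Cx3cr1 at 0.24. With limma and a pseudocount of 1 these were 0.69, 0.65 and 0.11, and Trem2 was 0.017; with a pseudocount of 10 the first 3 were 0.57, 0.62 and 0.068. Omitting a tumor gave -0.29 to 0.63 for Cd68, -0.63 to 1.29 for Cd163, -0.75 to 0.66 for Mrc1, -0.16 to 3.14 for Marco and -0.50 to 0.59 for Cx3cr1. The cause of these shifts was not tested.

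Same-numbered tumors did not deviate together (correlations -0.25 to 0.18), so the numbers were not taken as a pairing. With the replicate number as a block, 7 of the 8 were called in GLA-SE against PBS (440 panel genes), 0 in SE against PBS and 0 in GLA-SE against SE (0 panel genes), where Cd163 was at 0.79, Mrc1 at 0.68, Trem2 at 0.085 and Cx3cr1 at 0.13. Low counts limit Marco and, less so, Cx3cr1 and Cd163.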
